A study of Arabidopsis thaliana with 6 samples.

Results

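The genes described here encode the enzymes and proteins that break down glucosinolates in Arabidopsis thaliana: the myrosinases TGG1, TGG2 and PEN2, the epithiospecifier protein ESP, the nitrile specifier proteins NSP1 to NSP5 and the epithiospecifier modifier ESM1. They were chosen by name, as 10 of the 33617 genes in the deposited table, with the comparison of the mutant with wild type in view. Their values in that comparison are therefore given as a description and not as a test. Messenger RNA was sequenced from seedlings, 7 days old, raised without treatment in long days at 23 °C with MS as the medium. The mutant cog1-2D, made by activation tagging, gave 3 libraries, and the wild type Col-0 (wt) gave another 3, numbered 0, 1 and 2 in each genotype. COG1 encodes a Dof transcription factor, and an activation tag is an insertion meant to raise expression of a nearby gene. The labels do not name the accession in which the tag was inserted, how many insertion lines were used, or whether the numbered libraries came from separate cultures, so the tagged allele and any other difference between the lines cannot be told apart, and p-values measure only the spread between these libraries.

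Glucosinolates are sulfur-rich thioglucosides stored in intact tissue of the cabbage order. When tissue is damaged, myrosinases cut off the glucose, and the unstable aglucone rearranges by itself to an isothiocyanate or, in the presence of a specifier protein, to a nitrile or epithionitrile. TGG1 and TGG2 are the abundant myrosinases of myrosin idioblasts and guard cells of the shoot, whereas PEN2 is an atypical myrosinase that acts on indole glucosinolates in intact cells attacked by pathogens. ESP is known for differences between natural accessions, Columbia being known to make little or none of it.

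In cog1-2D, TGG2 was reduced to a trace and ESM1 was 5.01-fold lower, while NSP1, NSP3 and NSP4, neighbours on chromosome 3, were 1.43-fold, 2.97-fold and 2.0-fold higher. PEN2 was nearly the same in both genotypes. ESP and TGG1 are minus-strand genes, a class these libraries barely measured, and could be followed only through residual fragments, of which ESP had more in cog1-2D. NSP2 had no fragment and NSP5 had 13 in all.

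The strand of each gene decided how well it was measured. Over the 6 libraries, minus-strand nuclear coding genes held 0.135% of the fragments of nuclear coding genes, with a median of 1 fragment per gene, against a median of 985 for plus-strand genes. TGG2, PEN2, NSP1, NSP3, NSP4 and ESM1 lie on the plus strand, and TGG1, ESP, NSP2 and NSP5 on the minus strand. Libraries held 10575945 to 11202122 fragments. The library of wt replicate 1 stood apart, with 3219 minus-strand fragments, against 14809 to 18872 in each of the other libraries.

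The stretches of 250 bases before the annotated starts of TGG2, TGG1, ESM1, NSP1, NSP3 and NSP4 are shown because these are the genes with the largest loss, its neighbouring homologue, the modifier, and the specifier cluster. They were read from the RefSeq genome of the Columbia accession, build TAIR10.1, in the direction of transcription, and are not the sequence of either set of libraries. Capitals mark AAAG and its reverse complement CTTT, the core motif bound by Dof factors.

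TGG2, chr5:9072458-9072707, plus strand: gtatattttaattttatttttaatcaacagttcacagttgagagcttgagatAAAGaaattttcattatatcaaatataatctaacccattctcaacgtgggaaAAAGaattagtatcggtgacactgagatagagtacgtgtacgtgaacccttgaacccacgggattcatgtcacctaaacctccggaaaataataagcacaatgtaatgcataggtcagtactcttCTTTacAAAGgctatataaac

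TGG1, chr5:9082385-9082634, minus strand: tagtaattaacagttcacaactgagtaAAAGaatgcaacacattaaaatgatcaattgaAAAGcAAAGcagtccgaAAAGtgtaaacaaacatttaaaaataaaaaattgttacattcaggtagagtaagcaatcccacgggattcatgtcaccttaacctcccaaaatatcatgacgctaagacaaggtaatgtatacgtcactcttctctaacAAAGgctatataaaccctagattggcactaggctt

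ESM1, chr3:4729149-4729398, plus strand: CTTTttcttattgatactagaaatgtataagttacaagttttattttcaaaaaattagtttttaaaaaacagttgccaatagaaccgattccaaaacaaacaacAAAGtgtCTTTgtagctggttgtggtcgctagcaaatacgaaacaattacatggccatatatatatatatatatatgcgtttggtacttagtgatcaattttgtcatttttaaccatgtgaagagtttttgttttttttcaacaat

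NSP1, chr3:5565833-5566082, plus strand: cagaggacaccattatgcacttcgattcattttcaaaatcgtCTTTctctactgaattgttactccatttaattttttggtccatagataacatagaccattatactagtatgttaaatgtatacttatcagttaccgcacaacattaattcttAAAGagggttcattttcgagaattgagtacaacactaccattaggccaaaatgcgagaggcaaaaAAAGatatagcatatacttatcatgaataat

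NSP3, chr3:5562150-5562399, plus strand: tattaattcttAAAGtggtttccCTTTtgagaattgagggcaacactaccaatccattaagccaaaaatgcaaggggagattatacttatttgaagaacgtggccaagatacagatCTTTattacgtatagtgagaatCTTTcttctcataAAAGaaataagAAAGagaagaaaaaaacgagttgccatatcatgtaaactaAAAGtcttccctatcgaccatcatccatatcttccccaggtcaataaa

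NSP4, chr3:5571653-5571902, plus strand: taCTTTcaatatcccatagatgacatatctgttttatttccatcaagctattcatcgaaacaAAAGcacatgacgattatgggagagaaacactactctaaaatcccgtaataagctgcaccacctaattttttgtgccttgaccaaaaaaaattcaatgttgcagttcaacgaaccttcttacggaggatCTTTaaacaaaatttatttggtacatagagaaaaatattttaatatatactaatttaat

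The Dof core AAAG was found, on either strand, in 98.0% of 27442 promoters of this length, with a median of 4 copies. TGG2 had 4 copies, TGG1 had 5, and ESM1, NSP1 and NSP4 had 3 each. NSP3 had 7 copies, and PEN2 was the 1 gene of the 10 with none. The G-box CACGTG was in none of the 10 promoters and in 6.48% of all promoters. The E-box CANNTG, of which the G-box is one form, was in 7 of the 10 and in 55.3% of all. The longest run of bases that the TGG1 and TGG2 promoters had in common was cccacgggattcatgtcacct, of 21 bases, starting 116 bases before the start of TGG1 and 92 before that of TGG2, and no other of the 27442 promoters held it. These matches describe the letters in these windows only.

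Of the 10 genes, 8 passed the low-count filter. In edgeR's quasi-likelihood fit over all 10347 genes that passed it, at an adjusted p of 0.05, 4 of the 8 were past the threshold on the higher side and 2 on the lower side in cog1-2D. Of all tested genes, 36.3% were past it, 16.3% higher and 20.0% lower. The libraries of the 2 genotypes did not overlap in 6 of the 8, against 49.8% of all tested genes. The 4 and the 6 include ESP, a minus-strand gene with 75 to 98 residual fragments in cog1-2D and 0 to 2 in wt. ESP passed the filter through its cog1-2D libraries alone, so its place in these counts follows in part from the filter. Since the genes were proposed with this comparison known, nothing is read from these counts. The deposited table of the authors' own calls lists 6 of the 10, namely TGG1, TGG2, NSP1, NSP3, NSP4 and ESM1. It lists 9.29% of all 33617 genes in the count table. Of those 33617 genes, 13410 had no fragment in any library, so the 2 shares do not have a like base.

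**Figure D1:**
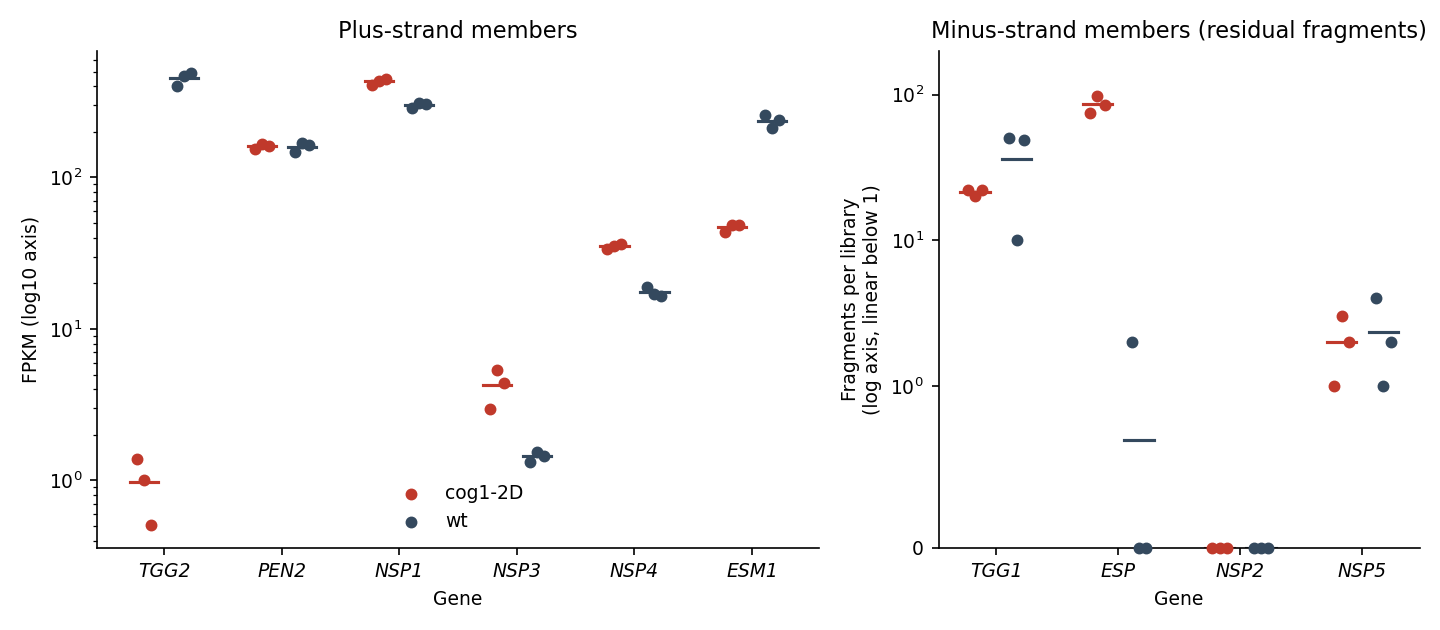
Values of the 10 genes in each library, with a bar at the mean of 3 libraries, cog1-2D left of wt. Left, plus-strand genes as FPKM on a log10 axis, where TGG2 lies between 0.506 and 1.39 in cog1-2D and between 401.7 and 486.9 in wt. Right, minus-strand genes as fragments, where ESP has 75 to 98 fragments in cog1-2D and 0 to 2 in wt.

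TGG2 (AT5G25980, chromosome 5, 9072708 to 9075777, plus strand) was the gene with the largest difference among the 6 on the plus strand. It had 1.39, 1.01 and 0.506 FPKM (fragments scaled by gene length and library size) in cog1-2D replicates 0, 1 and 2, against 401.7, 465.6 and 486.9 FPKM in wt. Every wt library lay far above every cog1-2D library. In fragments, 25, 19 and 10 were counted in cog1-2D and 8393, 8735 and 9303 in wt. Scaled for library size, the summed counts were 482.6-fold lower in cog1-2D, with an exact 95% binomial interval of 369.8 to 642.6 that covers counting error only. The fitted log2 fold change was -8.91 ± 0.17 (SE), and the authors' deposited table gives -8.86. In bulk seedling RNA, fewer cells of a type and less RNA per cell cannot be told apart. Of 6 genes that mark guard or myrosin cells, 5 lie on the minus strand, and these 5 together had 1 to 4 fragments in cog1-2D libraries and 0 to 3 in wt libraries. The sixth, the guard cell kinase gene HT1, had 4.94 ± 0.87 FPKM in cog1-2D and 4.07 ± 0.39 in wt (SD, n = 3) and did not pass the test (edgeR, adjusted p = 0.203). Of the 6 markers, EPF1 was at 0 in all libraries. The part of these cells in the TGG2 difference was not tested.

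TGG1 (AT5G26000, chromosome 5, 9079452 to 9082384, minus strand), the partner of TGG2 in myrosin cells, lies 3.67 kb from it on the opposite strand. It had 22, 20 and 22 residual fragments in cog1-2D and 50, 10 and 49 in wt, so the genotypes overlapped through wt replicate 1. The log2 fold change was -0.74 ± 0.47 (SE) and not past the threshold, and it was -1.17 ± 0.21 and past it without wt replicate 1. Per 10000 minus-strand fragments of the same library, a scaling chosen after the values were seen, TGG1 had 14.9, 12.9 and 13 in cog1-2D and 26.5, 31.1 and 27.3 in wt. On that scale the genotypes did not overlap, and the log2 fold change was -1.01 ± 0.22 (SE). The authors' deposited table lists TGG1 at -0.71. These fragments do not give the level of TGG1 transcripts in either genotype. The coding sequences of TGG1 and TGG2 were 82.7% identical with a longest common run of 55 bases, so a share of the few fragments on either gene in cog1-2D could belong to the other.

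PEN2 (AT2G44490, chromosome 2, 18364652 to 18367835, plus strand) had 155.0, 166.2 and 160.6 FPKM in cog1-2D and 147.4, 168.7 and 162.9 FPKM in wt. The ranges of the genotypes overlapped almost wholly. Its log2 fold change was 0.00 ± 0.06 (SE), with a sign that turned under some settings. The ratio of TGG2 to PEN2, per length, was 0.00896, 0.00610 and 0.00315 in cog1-2D and 2.72, 2.76 and 2.99 in wt. TGG2 was thus the higher of the 2 myrosinase transcripts in each wt library and PEN2 in each cog1-2D library.

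ESP (AT1G54040, chromosome 1, 20170715 to 20173949, minus strand) directs breakdown towards epithionitriles and nitriles. It had 75, 98 and 85 residual fragments in cog1-2D and 2, 0 and 0 in wt. All cog1-2D libraries lay above all wt libraries. Scaled for library size the summed counts stood at a ratio of 130.8 (exact 95% binomial interval 35.9 to 1086). Both wt fragments were in replicate 0, and without that library ESP was at least 56.5-fold higher in cog1-2D, taking 3 fragments over both other wt libraries as the floor. Per 10000 minus-strand fragments, ESP had 50.6, 63.3 and 50.1 in cog1-2D and 1.06, 0 and 0 in wt. The counts give neither its level in cog1-2D nor evidence that it was silent in wt, and the authors' deposited table of calls does not list it.

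The nitrile specifiers NSP3, NSP1 and NSP4 lie in this order on the plus strand of chromosome 3, with gaps of 1.51 and 3.36 kb. They encode kelch-repeat proteins that turn the aglucone into a simple nitrile. NSP1 (AT3G16400, 5566083 to 5568545) had 410.7, 434.4 and 448.6 FPKM in cog1-2D and 289.7, 308.7 and 305.5 FPKM in wt, a log2 fold change of 0.52 ± 0.06 (SE). It was the most abundant of the measured specifiers in either genotype, and the genotypes did not overlap.

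NSP4 (AT3G16410, 5571903 to 5574758) had 33.8, 35.2 and 36.3 FPKM in cog1-2D and 19.0, 17.1 and 16.5 FPKM in wt, a log2 fold change of 1.0 ± 0.07 (SE). NSP3 (AT3G16390, 5562400 to 5564574) had 2.97, 5.33 and 4.41 FPKM in cog1-2D and 1.33, 1.54 and 1.46 FPKM in wt, a log2 fold change of 1.57 ± 0.25 (SE). NSP3 rested on 49 to 86 fragments in each cog1-2D library and 23 or 24 in each wt library. In NSP3 and in NSP4, too, the lowest cog1-2D library lay above the highest wt library. The copies resemble each other, with coding sequences of NSP1 and NSP4 95% identical, of NSP1 and NSP3 92.2% and of NSP3 and NSP4 90.8%. NSP1 and NSP4 share an unbroken run of 366 bases. Their expected counts were whole numbers in every library, so no split fragments were seen, but some fragments could have been counted on the wrong copy. The smaller values of NSP3 and NSP4 are uncertain to that extent. The ratio of NSP1 to NSP4, per length, was 12.1, 12.3 and 12.4 in cog1-2D and 15.3, 18.1 and 18.6 in wt, so the copies did not change in equal proportion in these counts.

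NSP2 (AT2G33070, chromosome 2, 14028282 to 14031164) and NSP5 (AT5G48180, chromosome 5, 19540937 to 19542760), both on the minus strand, did not pass the filter. NSP2 had 0 fragments in every library, which allows up to 0.0929 CPM (fragments scaled by library size alone) in cog1-2D and 0.0919 in wt, each over the libraries of the genotype. NSP5 had 1, 3 and 2 fragments in cog1-2D and 4, 1 and 2 in wt. Since fragments of minus-strand genes were almost all missing, the limit for NSP2 is one on counted fragments and not on transcripts, and neither gene could be compared between the genotypes.

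ESM1 (AT3G14210, chromosome 3, 4729399 to 4731847, plus strand) encodes a GDSL lipase-like protein known to favour isothiocyanates over nitriles. It had 43.8, 48.3 and 48.8 FPKM in cog1-2D and 258.3, 213.1 and 238.6 FPKM in wt, a log2 fold change of -2.32 ± 0.08 (SE). The gap between the genotypes was several times the spread within either. The level of NSP1, NSP3 and NSP4 together, per length, was 10.2, 9.83 and 10 times that of ESM1 in cog1-2D and 1.20, 1.54 and 1.36 times in wt. As NSP1 made up 91.5% to 91.8% of that sum in cog1-2D and 93.5% to 94.5% in wt, the ratio is mainly one of NSP1 to ESM1.

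**Figure D2:**
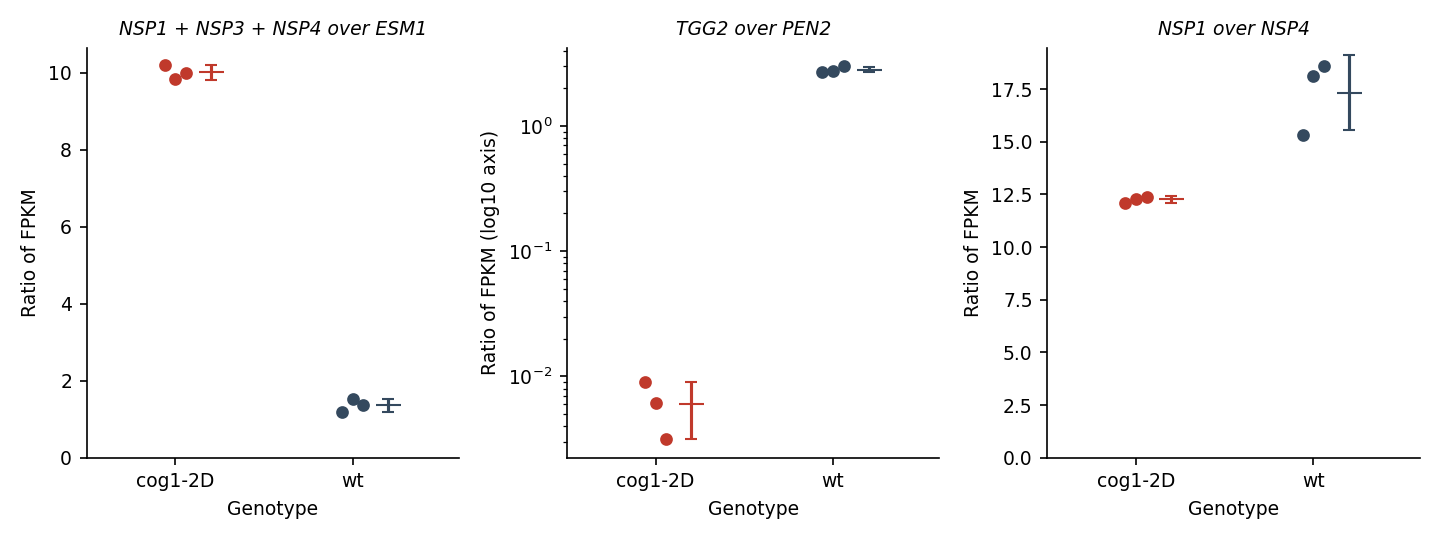
Ratios of FPKM between breakdown genes in each library, cog1-2D left of wt, with the mean and SD of 3 libraries beside the points. The sum of NSP1, NSP3 and NSP4 over ESM1 is 9.83 to 10.2 in cog1-2D and 1.20 to 1.54 in wt, and TGG2 over PEN2, on a log10 axis, is 0.00315 to 0.00896 and 2.72 to 2.99.

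The order of the plus-strand genes by level differed between the genotypes. In cog1-2D the order, from the highest mean FPKM, was NSP1 (431.2 ± 19.2), PEN2 (160.6 ± 5.6), ESM1 (46.98 ± 2.73), NSP4 (35.11 ± 1.24), NSP3 (4.24 ± 1.19) and TGG2 (0.97 ± 0.44). In wt it was TGG2 (451.4 ± 44.3), NSP1 (301.3 ± 10.2), ESM1 (236.7 ± 22.7), PEN2 (159.7 ± 11), NSP4 (17.50 ± 1.32) and NSP3 (1.44 ± 0.11; SD, n = 3 throughout). No 2 neighbours in either order overlapped in their library values. Among all 33617 genes, TGG2 ranked 10219 by mean FPKM in cog1-2D and 271 in wt, and NSP1 ranked 284 and 420. Of the 33617, 13410 had no fragment in any library and minus-strand genes were barely measured, so the ranks run in effect over fewer genes. The 6 genes together summed to 647.7, 690.5 and 699.2 FPKM in cog1-2D and to 1117, 1175 and 1212 FPKM in wt.

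The neighbourhoods were compared because the NSP genes and the TGG genes each sit together. Within 45 kb of the NSP1 start, 12 genes other than NSP1, NSP3 and NSP4 were tested, of which 1 was higher, 6 lower and 5 not past the threshold, beside 16.3% higher and 20.0% lower over all tested genes. On the side of NSP4 the cluster is followed by jacalin-related lectin genes. PBP1, whose product binds the beta-glucosidase PYK10, had 1563 ± 132 FPKM in cog1-2D and 1388 ± 100 in wt (SD, n = 3) and did not pass. JAL33, 22.2 kb from the NSP1 start, fell by 4.89 ± 0.09 on the log2 scale (edgeR, adjusted p = 3.17e-09), while JAL31, 15.5 kb away, rose by 0.33 ± 0.07 (adjusted p = 0.007). MLP-300B, 19.8 kb away, had a log2 fold change of -0.21 ± 0.12 and did not pass (adjusted p = 0.192). JAL34, 26.4 kb away, fell by 0.56 ± 0.09 (adjusted p = 0.00095). JAL31 was the 1 higher gene of the 12. JAL31, JAL33, JAL34 and MLP-300B were named after their values were seen. On the other side of NSP3, the nearest tested gene, AT3G16370, had a log2 fold change of 0.06 ± 0.08 (adjusted p = 0.602).

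Within 45 kb of the TGG2 start, 6 genes other than TGG1 and TGG2 were tested. Of these, 1 was higher, 4 lower and 1 not past the threshold, beside 16.3% higher and 20.0% lower over all tested genes. The nearest plus-strand gene, AT5G25970, 4.2 kb before TGG2, had a log2 fold change of 0.89 ± 0.24 (edgeR, adjusted p = 0.0195), a call lost without cog1-2D replicate 1 or wt replicate 1 (adjusted p = 0.0871 and 0.0526). RLP52, a receptor-like protein gene named after its values were seen, starts 33.8 kb from the TGG2 start. It fell by 3.93 ± 0.50 on the log2 scale (edgeR, adjusted p = 0.000326). RLP52 was a low-count gene, left out of the fits that required a mean of at least 50 fragments or 0.5 FPKM. Next to ESM1, the GDSL gene AT3G14220, 0.981 kb away, had 77.8 ± 4.3 FPKM in cog1-2D and 71.5 ± 6.0 in wt and did not pass (adjusted p = 0.244). AT3G14190, 16.8 kb before ESM1, fell by 0.37 ± 0.09 (adjusted p = 0.0125).

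**Figure D3:**
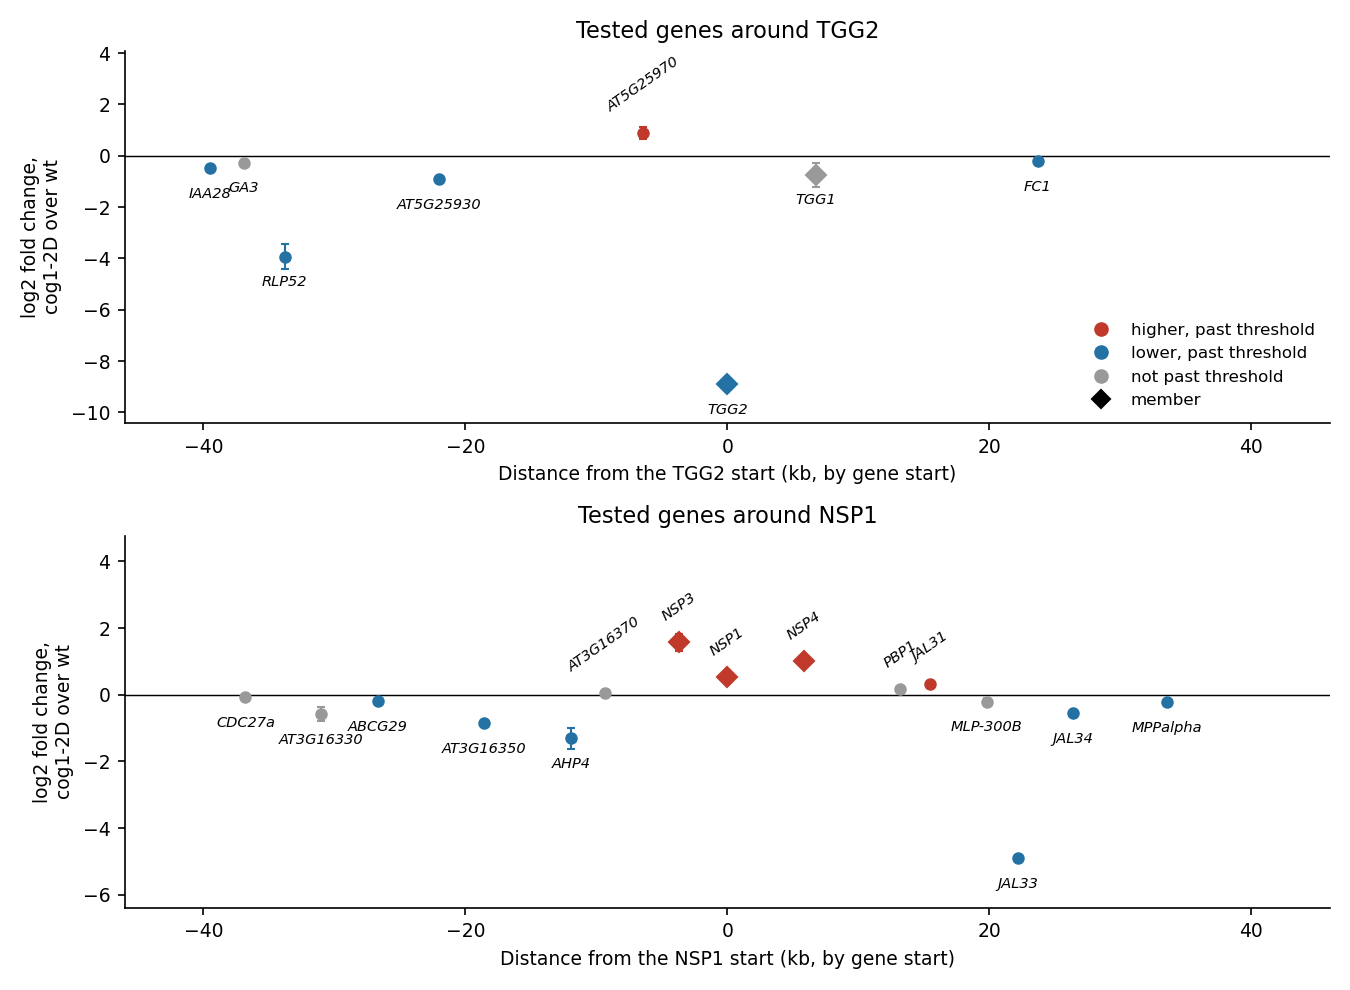
Log2 fold change of cog1-2D over wt, with its standard error, for each tested gene within 45 kb of the TGG2 start (top) and of the NSP1 start (bottom), by distance of gene starts in kb. TGG2 at -8.91 lies beside AT5G25970 at 0.89, and NSP3, NSP1 and NSP4 at 1.57, 0.52 and 1.0 lie near JAL33 at -4.89.

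Of 17 further beta-glucosidase genes related to the myrosinases, 8 were tested, and of these 3 rose, 3 fell and 2 did not pass, again beside 16.3% and 20.0% of all tested genes. BGLU28 and BGLU30, which are known to break down glucosinolates in plants short of sulfur, were low in both genotypes. BGLU28 had 1.78, 1.81 and 1.13 FPKM in cog1-2D and 4.70, 3.42 and 3.48 FPKM in wt, and fell by 1.40 ± 0.23 on the log2 scale (edgeR, adjusted p = 0.00149). BGLU30 had 0.149, 0.354 and 0.768 FPKM in cog1-2D and 1.18, 2.18 and 1.94 FPKM in wt, and fell by 2.03 ± 0.45 (adjusted p = 0.00762), a log2 fold change that was -2.78 without cog1-2D replicate 2 and -0.96 in limma on log2(FPKM + 1). In both genes the genotypes did not overlap, although BGLU30 rested on 3 to 16 fragments in each cog1-2D library.

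The root myrosinase gene TGG5 had 46.1, 36.5 and 40.1 FPKM in cog1-2D and 21.4, 25.5 and 22.7 FPKM in wt, and rose by 0.81 ± 0.10 on the log2 scale (edgeR, adjusted p = 0.000223). TGG4, named after its values were seen as the close copy of TGG5, fell by 0.27 ± 0.09 (adjusted p = 0.0372). Their coding sequences are 97.7% identical with a common run of 187 bases. Fragments could therefore have been counted on the wrong copy, and the opposite signs are uncertain. The TGG4 call was also lost without cog1-2D replicate 1 or 2 or wt replicate 1 or 2 (adjusted p = 0.141, 0.111, 0.119 and 0.052). BGLU25 rose by 0.37 ± 0.09 (adjusted p = 0.0092). The third rise, BGLU33, was of 0.20 ± 0.06 (adjusted p = 0.029) and was lost without cog1-2D replicate 1 or wt replicate 0 or 1 (adjusted p = 0.119, 0.0639 and 0.0788). PYK10, the main beta-glucosidase of root endoplasmic reticulum bodies, is a minus-strand gene measured by residual fragments only.

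Among 11 genes grouped as downstream enzymes and transport, 9 were tested, of which none rose, 6 fell and 3 did not pass. Over all tested genes, 16.3% were higher and 20.0% lower. The group is loose, since CYP81F2 acts before the PEN2 step and NIT4 does not act on glucosinolate nitriles. The median log2 fold change of the 9 was -0.36, against 0.0 over all tested genes. No gene of this list rose in DESeq2 or limma either, and none of the 9 had a positive fold change in edgeR's fit. Those fits used the same libraries, and the list was chosen with earlier results known, so nothing is read from these counts. The list includes the indole pathway that runs through PEN2, whose own transcript differed by less than the spread between libraries. CYP81F2, the P450 that hydroxylates indol-3-ylmethyl glucosinolate towards the substrate of PEN2, had 11.4, 8.84 and 5.31 FPKM in cog1-2D and 22.5, 26.7 and 18.8 FPKM in wt. It fell by 1.42 ± 0.23 on the log2 scale (edgeR, adjusted p = 0.00125), and the genotypes did not overlap. GSTU13, a glutathione transferase of the same pathway, had 36.9, 38.6 and 39.0 FPKM in cog1-2D and 111.9, 123.9 and 112.3 FPKM in wt. It fell by 1.61 ± 0.06 (adjusted p = 1.77e-07), a drop far beyond the spread of either genotype. The phytochelatin synthase gene PCS1, also of the PEN2 pathway, fell by 0.36 ± 0.06 (adjusted p = 0.00228). PEN3, the plasma membrane transporter that acts with PEN2, had a log2 fold change of -0.27 ± 0.09 and lay just outside the threshold (adjusted p = 0.0512), and it passed without wt replicate 0 (-0.36, adjusted p = 0.00617).

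Nitrilases hydrolyse nitriles, and NIT1, NIT2 and NIT3 form a tandem group on chromosome 3. NIT2 fell by 0.49 ± 0.10 on the log2 scale, to 53.5 ± 6.3 FPKM in cog1-2D against 74.8 ± 7.6 in wt (SD, n = 3; edgeR, adjusted p = 0.00451). NIT3 fell by 0.34 ± 0.08 (adjusted p = 0.00802). NIT1, the most abundant, had 1487 ± 68 FPKM in cog1-2D and 1675 ± 138 in wt and did not pass (adjusted p = 0.0889), but did without wt replicate 1 (-0.24, adjusted p = 0.0471). The coding sequences of NIT1 and NIT2 are 91.4% identical with a common run of 104 bases, so fragments could have been counted on the wrong copy. NIT4, which acts on beta-cyanoalanine and not on glucosinolate nitriles, had 7.84, 7.37 and 8.62 FPKM in cog1-2D and 34.2, 29.9 and 28.7 FPKM in wt, and fell by 1.93 ± 0.10 (adjusted p = 1.41e-06). BGLU33, PCS1, NIT3, NIT1 and PEN3 were named after their values were seen.

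Of 10 genes for myrosinase-binding and associated proteins, specifier relatives and GDSL neighbours of ESM1, 6 are minus-strand genes, and 4 were tested with none past the threshold in edgeR's test. Over all tested genes, 36.3% were past it, so a count of 0 among 4 says little about this list. None of the 4 had an unadjusted p under 0.05 in that test, and DESeq2 and limma called 0 of the list. PBP1, with the smallest p, had a log2 fold change of 0.16 ± 0.08 (edgeR, adjusted p = 0.128) and passed without cog1-2D replicate 0 (0.23, adjusted p = 0.0467). Of 6 genes for myrosin cell identity and vacuolar traffic, only the vacuolar SNARE gene VTI11 and the Rab exchange factor gene VPS9A were tested, with none past the threshold in edgeR's test and 0 called by DESeq2 or limma. This count, too, stands beside 36.3% of all tested genes past the threshold and says little. The libraries of the 2 genotypes did not overlap in either gene, against 49.8% of all tested genes. VTI11, the 1 gene of these with an unadjusted p under 0.05, had a log2 fold change of -0.17 ± 0.06 (adjusted p = 0.0617), passing without wt replicate 0 (-0.21, adjusted p = 0.0348), and VPS9A one of 0.11 ± 0.06 (adjusted p = 0.182). FAMA, the regulator that specifies myrosin cells, had 1 fragment in each genotype.

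**Figure D4:**
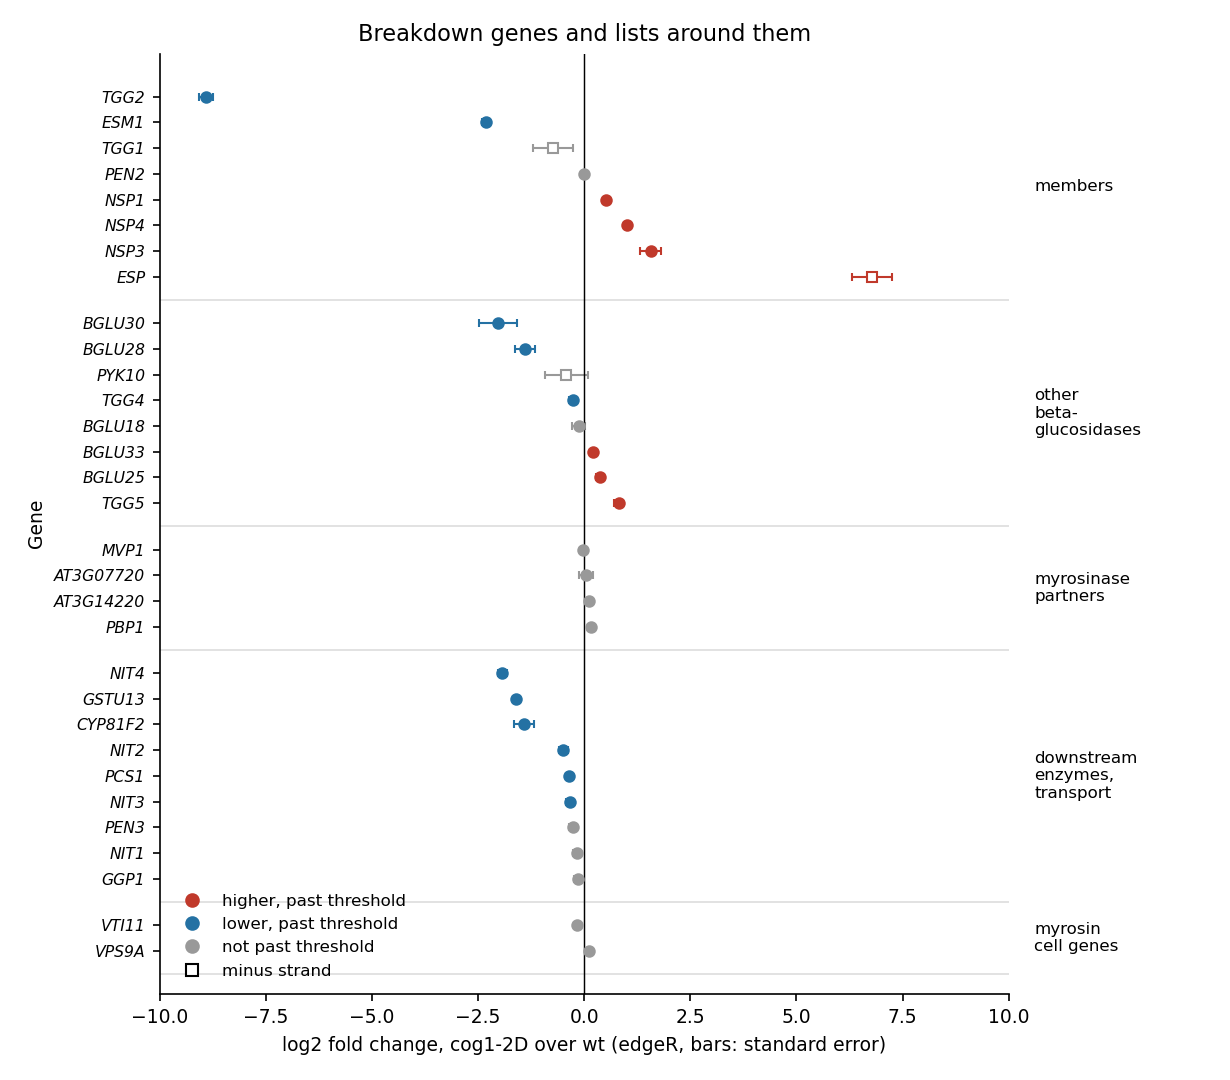
Log2 fold change of cog1-2D over wt with its standard error for each tested gene of the set and of the lists around it, coloured by the threshold of edgeR's fit and with open squares for minus-strand genes. TGG2 (-8.91) and ESP (6.79) lie farthest from 0, and the genes grouped as downstream enzymes and transport lie below 0.

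Markers of other tissues were read beside these values. The root sodium transporter gene HKT1 had 1.81 ± 0.14 FPKM in cog1-2D and 5.02 ± 0.46 in wt (SD, n = 3) and fell (edgeR, adjusted p = 7.76e-05). The leaf antenna gene LHCB1.3 had 23930 ± 611 FPKM in cog1-2D and 22350 ± 2870 in wt and did not pass (adjusted p = 0.477). The other markers fixed for root and leaf, PYK10 and RBCS1A, lie on the minus strand and had residual fragments only. The root gene PYK10 had 43, 51 and 49 in cog1-2D and 94, 13 and 88 in wt (edgeR, adjusted p = 0.554). The leaf gene RBCS1A had 391, 464 and 458 in cog1-2D and 555, 94 and 570 in wt (adjusted p = 0.841). Neither passed, and in both the genotypes overlapped. The part of tissue proportions in the differences above was not tested.

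The pattern over the 6 libraries was set beside that of all other tested genes, by the root mean square difference of log2 CPM (prior count of 2) after centring each gene on its own mean. Nearest to TGG2 were DAR4 (difference 0.40), AT5G28919 (0.477) and AT5G28350 (0.492), of which DAR4 and AT5G28919 had no fragment in cog1-2D and averaged 104 and 55.8 CPM in wt. Nearest to ESM1 were AT5G42700 (0.0551), RALFL27 (0.0853) and AT3G44670 (0.0999). Nearest to NSP4 were IMS2 (0.0662), known for its part in methionine chain elongation of glucosinolate synthesis, SLO1 (0.0724) and XTH20 (0.0823). IMS2 had 325 ± 11 CPM in cog1-2D and 159 ± 11 CPM in wt. For NSP1 they were AT2G36145, CAT3 and AT2G30740 (0.0282 to 0.0305), and for NSP3, with its few fragments, AT3G43840, AT5G02760 and AT4G22230 (0.123 to 0.165). This measure reflects mostly the size of the genotype difference, since the libraries fall into 2 genotypes.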

How the data were processed

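Libraries were made with a stranded TruSeq mRNA kit, per the labels. Per the submitters' processing notes, the authors used Cuffdiff, Cufflinks 2.2.1, HISAT2 2.1.0 and Trimmomatic 0.36, with the TAIR10 build. The role of each tool and the strand setting were not given in the sources used here. The deposited table holds expected counts of fragments and FPKM per gene and library, per the file headers. Of the expected counts, 98.1% were whole within 1e-06. The authors' deposited workbook gives FPKM per genotype, log2 fold changes and q-values, per the file headers.

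Expected counts were rounded and fitted with edgeR 4.0.16 in R 4.3.3 (filterByExpr, TMM, quasi-likelihood F-test, genotype as the only term, Benjamini-Hochberg adjustment over all 10347 genes tested), the test named wherever an adjusted p stands. SE is the size of the log2 fold change over the square root of F. Levels of different genes were compared on the deposited FPKM. Positions, strands and sequences are those of TAIR10.1, which gave annotation for 32225 genes of the table. Coding sequences were aligned with Biopython 1.88. Same-numbered libraries had correlations of deviations from the genotype means of -0.0146, -0.0162 and 0.106 across genes, so the numbers were not taken to pair libraries. On simulated counts (10314 genes tested), the right direction was called for 100 of 100 genes with a log2 change of 1. It was called for 83 of 100 with a log2 change of 0.5. Only genes with a mean of at least 50 fragments were changed, and the same spread between libraries was set for all genes. These rates therefore do not cover genes with fewer fragments, such as NSP3, ESP, TGG1 and BGLU30.

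The members and lists were chosen with earlier results of these data known. Named genes are the 10 members, up to 4 called genes per list with the largest change, or, in a list without a call, the 2 of smallest p, the nearest tested genes beside called plus-strand members, and the 3 genes nearest in pattern; genes named outside this rule are said in the report to have been named after their values were seen. Alternatives were DESeq2 1.42.0, upper-quartile and RLE factors, other count filters, limma 3.58.1 on log2 FPKM with pseudocounts of 1 and 0.1, a replicate block, plus-strand genes only and leaving out each library. Scaling to minus-strand fragments was added after seeing the data. The share of TGG1 in the FPKM of TGG1 and TGG2 is not given, since TGG1 is on the minus strand.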

Additional observations from a re-analysis of the deposited data

How the results depend on the processing

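Under the 15 alternatives chosen at the outset, the count of breakdown genes past the threshold stayed at 4 higher and 2 lower, except with a mean of at least 50 fragments, which left out ESP and NSP3 and gave 2 higher, with plus-strand genes only, which left out ESP and gave 3 higher, and without wt replicate 1, where TGG1 made 3 lower. TGG2, ESM1, NSP1 and NSP4 kept their direction and call wherever they were fitted, with log2 fold changes from -9.22 to -7.86, -2.38 to -2.26, 0.49 to 0.55 and 0.96 to 1.06. NSP3 ran from 1.07 to 1.77 and ESP from 2.89, in limma on log2(FPKM + 1), to 9.42, without wt replicate 0. The pseudocount pulls in low values by construction. PEN2, at -0.05 to 0.04 over the fits that leave out a library, turned to -0.01 without the low-count filter, -0.0 with a mean of at least 50 fragments, and -0.02 and -0.05 without cog1-2D replicate 1 and wt replicate 0. AT3G16370 ran from -0.03, without wt replicate 0, to 0.13. The cause was not tested. Over leave-one-out fits, 0 to 1 of the myrosinase partners rose and 0 to 1 of the myrosin cell genes fell, and 1 of the myrosin cell genes, VTI11, fell without the low-count filter. TGG4 lost its call also with upper-quartile factors, DESeq2 and limma, and BGLU33 with DESeq2 and without the low-count filter. PEN3 passed under 6 alternatives and NIT1 under 3.

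With the replicate number as a block, 4 breakdown genes were higher and 2 lower. In that fit, 8 of the genes grouped as downstream enzymes and transport fell, as did 1 of the myrosin cell genes, VTI11. Over all 10347 genes tested, the same fit called 1863 higher and 2230 lower, more than the main comparison in both directions. The replicate numbers were not shown to pair the libraries. Over all genes, counts ran from 1129 to 1896 higher and from 1554 to 2303 lower, each within 1.5 times the 1686 and 2066 of the main comparison. Fragments of minus-strand genes were almost all missing, so the low counts of NSP2 and NSP5 do not give their transcript levels. Whether these 2 genes were expressed in the seedlings was not tested.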
